A study of Homo sapiens with 48 samples.

Results

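The 32 genes described here encode the cholesterol and fatty acid synthesis pathway and its main transcriptional control. They were taken by gene symbol from a list of pathway members, which was drawn up with earlier results of these data known, and each matched exactly 1 of the 60610 rows of the gene table. All 32 passed the filter on low counts, which kept 19626 genes. The list holds 5 regulators of the sterol regulatory element binding proteins (SREBPs), 7 enzymes from acetyl-CoA to farnesyl diphosphate, 11 enzymes from squalene to cholesterol, the sterol carrier STARD4, 7 enzymes of fatty acid synthesis and desaturation, and FAXDC2, a member of the fatty acid hydroxylase superfamily.

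Cells make cholesterol from acetyl-CoA through mevalonate, isoprenoid diphosphates and squalene, and make fatty acids from the same precursor through malonyl-CoA. Both routes are controlled by SREBPs, transcription factors that are synthesised as membrane proteins of the endoplasmic reticulum. The escort protein SCAP carries them to the Golgi when sterols are scarce, where proteases release the active part. When sterols are plentiful, INSIG proteins hold SCAP back, and INSIG1 is itself a classical SREBP target gene. This background is textbook knowledge and was not measured here.

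All libraries came from 1 clone (B6) of HEK293, a cell line derived from human embryonic kidney. In this clone the angiotensin II type 1 receptor (AT1R) was stably expressed from a transfected construct after selection with puromycin. Losartan was present as well, to keep residual angiotensin II of the serum from activating AT1R. All groups, controls included, carried the receptor and were kept without serum, so the data describe 1 clone and not HEK293 cells in general. Cells were left unstimulated (control) or received 1 nM angiotensin II (AII), 10 µg/l EGF, or AII + EGF, for 6 or 24 h, with 6 libraries of polyadenylated RNA deposited for each of the 8 groups. Of these 48 libraries, 38 were used, namely 4 control, 5 AII, 3 EGF and 4 AII + EGF libraries at 6 h and 6 control, 5 AII, 5 EGF and 6 AII + EGF libraries at 24 h. The labels do not say whether replicates were separate cultures, so p-values measure the spread between libraries, which may be technical. In bulk RNA, a change in the number of cells cannot be told apart from a change in RNA per cell.

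Deposited totals ran from 17.78 M to 29.96 M counts (M, mega) in the 38 libraries, and levels are given in CPM, counts per M of the library total after TMM scaling. The 10 libraries left out were 8 that formed 4 near-identical pairs, mostly across groups (chi-square per degree of freedom under 1, against 2.025 for the next of 1128 pairs), and the AII 6 h and AII + EGF 6 h libraries with replicate number 6. On a scale from AII (0) to AII + EGF (1) over 1492 genes, the former lay at 0.86 and the latter at −0.01, which goes against their labels. All 8 HEK293 markers examined, among them NEFM and NEFL, were detected in all 38 libraries. PAX2 was the lowest of them, at 0.273 to 3.90 CPM (mean 1.31 CPM), which overlaps the levels of PLIN1 given next. The defining markers of leukocytes, endothelium, hepatocytes, adipocytes and erythroid cells did not exceed 1.865 CPM (PLIN1), and PTPRC, CD3E, ADIPOQ and HBB were at 0 counts in most libraries.

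A further run of 4 consecutively titled 24 h libraries, replicate 6 of each group, stood apart. The EGF-responsive gene ETV5 was at 1.32 CPM in its EGF library and 1.00 CPM in its AII + EGF library, against 12.3 to 16.8 CPM and 10.4 to 15.2 CPM in the other EGF and AII + EGF libraries and 0.699 to 1.00 CPM in the 24 h controls. EGR1 was also near its control in both (6.42 and 8.07 CPM, control 6.56 CPM). AGTR1, the AT1R gene, differed: within this run it was lowest without stimulus (4663 CPM) and highest with AII + EGF (8080 CPM). In the other 24 h runs its AII + EGF libraries had 12900 to 15210 CPM and its controls 7193 to 10080 CPM. INSIG1 in this run differed from control by 0.44 with AII + EGF and by −0.01 with EGF (log2). Within the pathway, HMGCS1, MVD and CYP51A1 were higher in all 4 libraries of this run than in the other 18 libraries of 24 h, whatever the stimulus, while no member was lower in all 4. Over all genes tested, 480 of 19626 were higher and 655 lower in this way. The summed level of the 7 mevalonate genes was 836 to 1054 CPM in this run and 520.3 to 798 CPM in the others. Results at 24 h are therefore given with and without these 4 libraries, an alternative added after the data were seen.

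**Figure D1:**
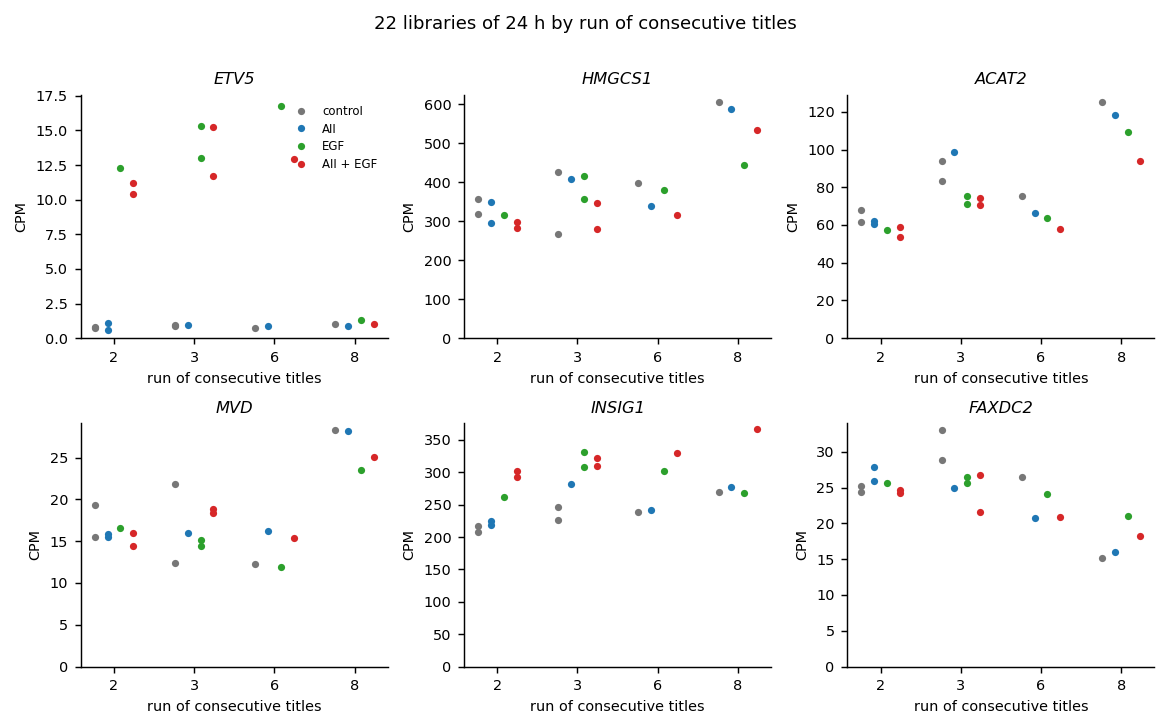
CPM of ETV5, used as a check of the EGF labels, and of 5 members in the 22 libraries of 24 h, by run of consecutive titles (x axis), with 1 point per library and the stimulus in colour. In run 8 the EGF and AII + EGF libraries have ETV5 at the level of controls, and HMGCS1 and MVD lie above every other library. AGTR1, not drawn, was higher in the AII + EGF library of run 8 (8080 CPM) than in its control (4663 CPM).

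The promoters of 28 of the 32 genes were found in the RefSeq table for GRCh38.p14 (300 bases, from 250 before to 50 after the start). Sequences are shown for 4 genes so that the letters known to be bound by SREBPs and their partner NF-Y can be seen beside members of either direction. SREBF2 was chosen as the single member with a match to the sterol regulatory element core TCACNCCAC, and INSIG1, HMGCS1 and MVD were chosen after their values were seen, as called members of opposite direction. Each run holds the 250 bases before the start, 5′ to 3′ on the gene's strand. Capitals mark the core, the NF-Y box CCAAT on either strand (reverse complement ATTGG) and the SREBP-type E-box TCACNTGA. INSIG1 itself lies at chr7:155297878-155310235, HMGCS1 at chr5:43287470-43313412, MVD at chr16:88651940-88663091 and FAXDC2 at chr5:154818492-154850603. The positions shown are chr7:155297628-155297877 (plus strand) for INSIG1, chr5:43313413-43313662 (minus strand) for HMGCS1, chr16:88663092-88663341 (minus strand) for MVD and chr22:41832855-41833104 (plus strand) for SREBF2.
INSIG1: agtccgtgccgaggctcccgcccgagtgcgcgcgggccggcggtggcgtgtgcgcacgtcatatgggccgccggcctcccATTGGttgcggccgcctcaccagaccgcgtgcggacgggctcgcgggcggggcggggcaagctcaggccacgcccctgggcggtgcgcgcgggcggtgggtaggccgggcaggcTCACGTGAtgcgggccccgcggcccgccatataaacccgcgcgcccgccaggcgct
HMGCS1: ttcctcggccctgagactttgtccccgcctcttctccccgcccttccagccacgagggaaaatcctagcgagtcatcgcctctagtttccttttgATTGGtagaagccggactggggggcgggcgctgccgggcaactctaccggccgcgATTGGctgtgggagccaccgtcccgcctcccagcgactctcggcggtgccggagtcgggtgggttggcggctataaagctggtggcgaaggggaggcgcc
MVD: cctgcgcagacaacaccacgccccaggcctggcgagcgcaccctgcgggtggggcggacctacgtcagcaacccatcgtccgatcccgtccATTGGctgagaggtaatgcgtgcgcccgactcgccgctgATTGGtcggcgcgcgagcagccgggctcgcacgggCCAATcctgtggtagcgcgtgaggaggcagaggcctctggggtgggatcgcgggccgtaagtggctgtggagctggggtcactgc
SREBF2: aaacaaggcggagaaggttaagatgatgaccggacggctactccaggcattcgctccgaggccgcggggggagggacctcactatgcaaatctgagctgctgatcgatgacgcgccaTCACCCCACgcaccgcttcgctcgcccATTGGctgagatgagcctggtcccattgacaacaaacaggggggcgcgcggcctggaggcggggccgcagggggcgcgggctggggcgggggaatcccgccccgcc

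Searched on both strands of the 300 bases, the core was present in 1.13% of all 35116 promoters and among the members in SREBF2, at 133 bases before the start. The E-box, added to the search after the design was set, was present in 3.79% of all promoters and in INSIG1 and EBP. The NF-Y box was present in 34.6% of all promoters and in 17 of the 28 members matched, by the first promoter entry of each. It did not sort the members by direction: 2 of the 4 members called higher under AII + EGF at 6 h held it, 4 of the 7 matched members called lower, and 11 of the 17 matched members not called. MVK held 5 matches, NSDHL 5 and FAXDC2 none. These letter matches are descriptions and say nothing of what was bound.

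The first question was how each stimulus alone, and their combination, changed the pathway after 6 h. A gene was called when the adjusted p of edgeR's quasi-likelihood test (Benjamini-Hochberg over all genes tested) was under 0.01, the change at least 1.5-fold and the mean above 5 CPM in the group with the higher level. AII + EGF changed 12 of the 32 genes, 4 upward and 8 downward, where 12% of all genes tested were called (6.45% upward, 5.53% downward). EGF alone changed 3 genes, 2 upward and 1 downward (background 1.94%, with 1.62% upward and 0.321% downward). AII alone changed none (background 0.469%), by edgeR and by DESeq2. At an unadjusted p under 0.05 there were 8 members, beside 2367 of all 19626 genes tested. The regulators INSIG1 and INSIG2, the first committed enzyme HMGCS1 and the elongase ELOVL6 rose. MVK, PMVK and MVD of the mevalonate branch, the sterol enzymes SQLE, TM7SF2 and EBP, the desaturase FADS2 and FAXDC2 fell. Members of the same branch thus moved in both directions.

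**Figure D2:**
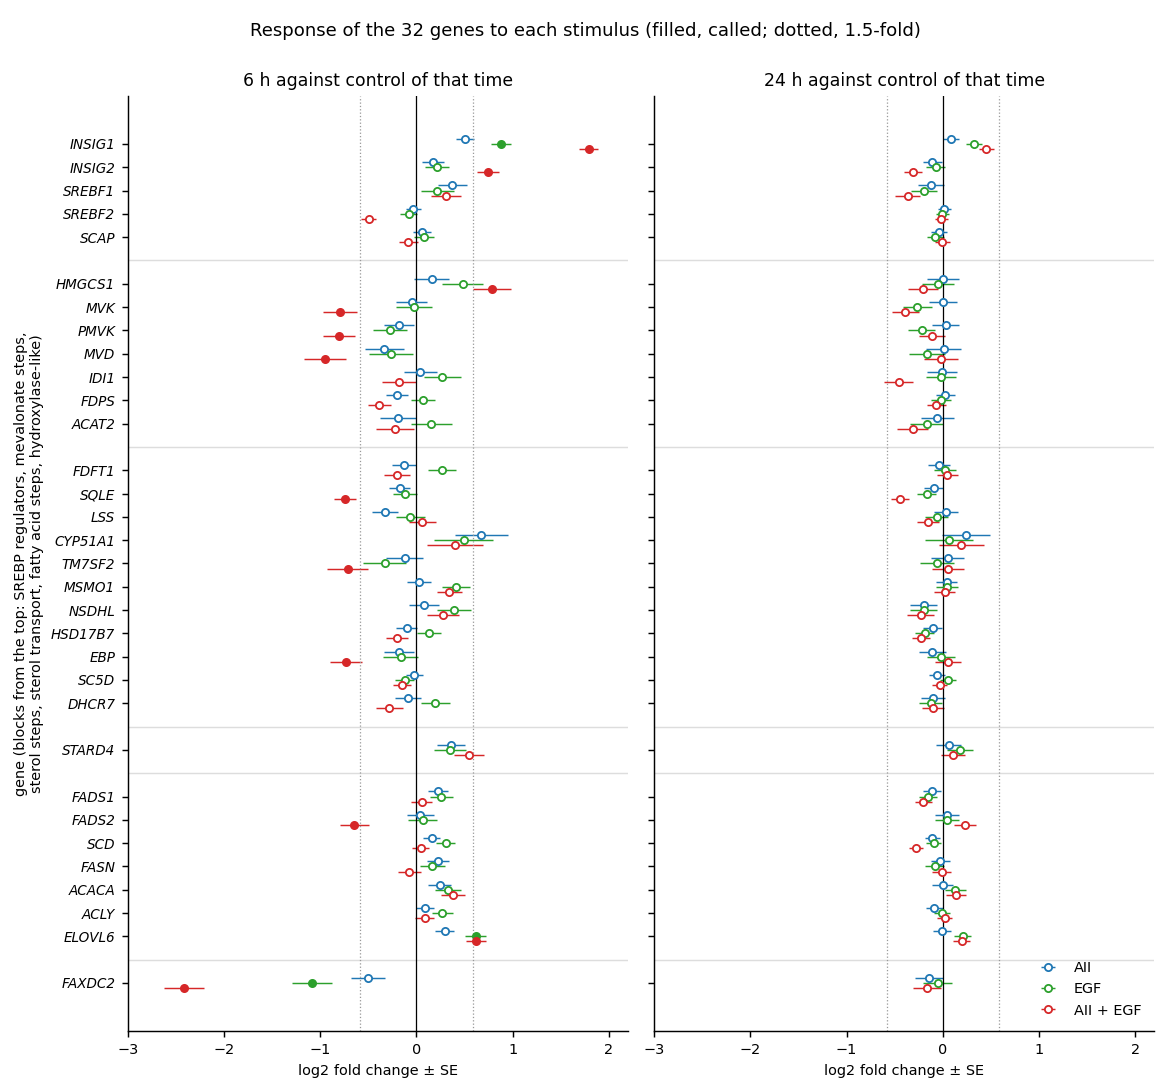
Log2 fold change ± SE (x axis) of the 32 genes (y axis, in blocks by role) under AII, EGF and AII + EGF against control of the same time, at 6 h (left) and 24 h (right). Filled points were called and dotted lines mark 1.5-fold. At 6 h AII + EGF has 12 called genes on both sides of 0, and at 24 h no gene was called.

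Among the SREBP regulators, INSIG1, which retains SCAP in the endoplasmic reticulum, changed most. At 6 h its level was 298, 277, 292 and 277 CPM in the 4 control libraries and 371, 392, 412, 434 and 417 CPM in the 5 AII libraries. It was 515, 521 and 542 CPM in the 3 EGF libraries and 922, 897, 1047 and 1094 CPM in the 4 AII + EGF libraries. The 4 groups did not overlap and were ordered control, AII, EGF, AII + EGF. The log2 change was 0.50 ± 0.09 (SE) under AII, with an adjusted p of 0.000911 (edgeR) but under the 1.5-fold minimum. It was 0.88 ± 0.10 under EGF (adjusted p = 1.27e-07, edgeR) and 1.79 ± 0.10 under AII + EGF (adjusted p = 8.25e-17, edgeR), which is a 3.46-fold rise. INSIG1 was the single member to pass the test under AII alone, as did 0.836% of all genes upward.

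INSIG2, the second INSIG protein, was at 22.5, 19.2, 21.4 and 19 CPM in control and 34.8, 36.2, 32.2 and 33.95 CPM under AII + EGF. AII (21.03 to 25.5 CPM) overlapped control and EGF (23.6 to 24.1 CPM) lay just above it, so that the step was seen under the combination (log2 change 0.74 ± 0.12, adjusted p = 3.18e-06, edgeR). SREBF2, which encodes the SREBP that favours sterol genes, was at 284 to 343 CPM in control and 210.3 to 241 CPM under AII + EGF. All AII + EGF libraries were lower (log2 change −0.50 ± 0.08, adjusted p = 7.35e-06), but the change stayed under the fold minimum. SREBF1, which encodes the SREBP forms that favour fatty acid genes, was above control in all libraries of the 3 stimuli, by 0.37, 0.22 and 0.31 on the log2 scale under AII, EGF and AII + EGF, with adjusted p-values of 0.255, 0.565 and 0.137. SCAP did not pass the test under any stimulus, with log2 changes of 0.06, 0.08 and −0.09. The summed level of the 5 regulators averaged 799.6 ± 51.4 CPM over the 4 controls (SD) and 1422 ± 92.7 CPM over the 4 AII + EGF libraries (SD).

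**Figure D3:**
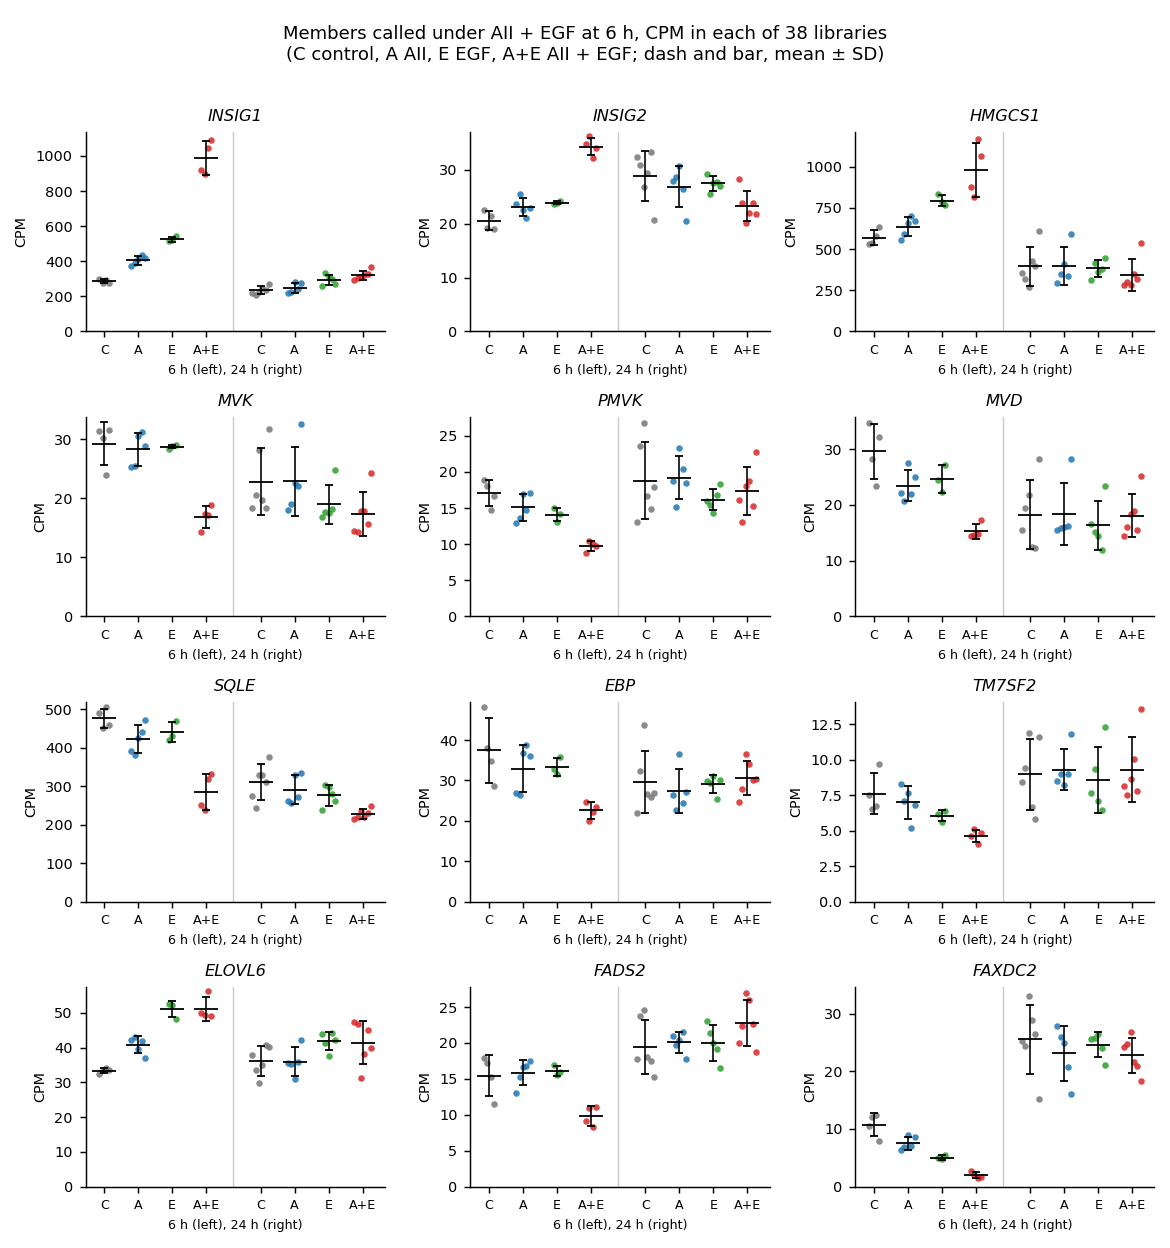
CPM (y axis, from 0) of the 12 genes called under AII + EGF at 6 h in each of the 38 libraries, by stimulus (C control, A AII, E EGF, A+E AII + EGF) at 6 h and 24 h. Dashes and bars show mean ± SD of each group. At 6 h the AII + EGF libraries of all 12 genes lie outside the range of the controls, whereas at 24 h this holds for INSIG1 alone.

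In the mevalonate branch, HMGCS1 rose, and MVK, PMVK and MVD, which act in sequence on mevalonate, fell. HMGCS1, which makes HMG-CoA, was at 531, 536, 578 and 634 CPM in control, 557 to 698 CPM under AII and 833, 784 and 766 CPM under EGF. Under AII + EGF it was at 875, 817, 1166 and 1062 CPM. EGF libraries lay above all controls, although the EGF change of 0.48 ± 0.21 on the log2 scale did not pass the test (adjusted p = 0.202). The change under AII + EGF was 0.78 ± 0.20 (adjusted p = 0.00177, edgeR), and it missed the threshold without AII + EGF replicate 3, at an adjusted p of 0.0109.

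MVK, mevalonate kinase, was at 31.4, 30.2, 24.0 and 31.5 CPM in control, 25.3 to 31.2 CPM under AII and 28.4, 28.8 and 29.03 CPM under EGF. Under AII + EGF it was at 14.3, 17.4, 17.1 and 18.8 CPM, below every other 6 h library. The log2 change of MVK was −0.05 ± 0.16 under AII and −0.03 ± 0.19 under EGF, neither of which passed the test, and −0.79 ± 0.18 under the combination (adjusted p = 0.000458, edgeR). PMVK, the kinase of the next step, was at 18.9, 18.1, 14.7 and 16.7 CPM in control and 8.83, 10.5, 10.1 and 9.80 CPM under AII + EGF. Its change was −0.80 ± 0.17 (adjusted p = 0.000234, edgeR), with AII (12.99 to 17.1 CPM) and EGF (13.1 to 14.98 CPM) in between.

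MVD, the decarboxylase that yields isopentenyl diphosphate, was at 34.7, 28.2, 23.3 and 32.1 CPM in control and 14.4, 14.6, 14.9 and 17.3 CPM under AII + EGF. This was the largest fall of the branch (−0.95 ± 0.22, adjusted p = 0.000596, edgeR), whereas AII (20.7 to 27.4 CPM) and EGF (22.3 to 27.1 CPM) overlapped control. FDPS, farnesyl diphosphate synthase, was lower in all AII + EGF libraries (76.4 to 86.0 CPM against 93.5 to 116 CPM), at a log2 change of −0.39 ± 0.12 and an adjusted p of 0.0106. IDI1 (−0.18 ± 0.18) and ACAT2, the cytosolic thiolase at the entry (−0.22 ± 0.20), did not pass the test. ACAT2 ranged from 121 to 185 CPM over all libraries of 6 h. MVK shares 233 bases of its annotated span with MMAB, and ACAT2 overlaps SOD2 and TCP1, so that reads of these genes may not be separable if strand was not used in counting, which is not stated.

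Of the 11 enzymes from squalene to cholesterol, 3 fell under AII + EGF and none rose. SQLE, the squalene epoxidase and a rate-limiting step, was at 491, 452, 505 and 460.2 CPM in control and 252, 238, 319 and 332 CPM under AII + EGF. AII (380.4 to 471 CPM) and EGF (421 to 470 CPM) overlapped control. The fall of SQLE was −0.74 ± 0.12 (adjusted p = 2.57e-06, edgeR). EBP, the sterol isomerase, was at 48.1, 38.03, 34.9 and 28.7 CPM in control and 24.7, 19.9, 22.2 and 23.5 CPM under AII + EGF. Its controls spread widely, yet no AII + EGF library reached them (−0.73 ± 0.17, adjusted p = 0.000698, edgeR).

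TM7SF2, a sterol C14 reductase, was at 7.496, 6.51, 6.72 and 9.72 CPM in control and 4.63, 5.08, 4.06 and 4.80 CPM under AII + EGF (−0.71 ± 0.21, adjusted p = 0.00823, edgeR). TM7SF2 was the least firm call, since it was kept in 2 of the 8 fits that left out 1 library of the groups compared. The other 8 enzymes were not called. CYP51A1, the lanosterol demethylase, had the largest estimate of these enzymes under the single stimuli (0.67 ± 0.28 under AII and 0.49 ± 0.31 under EGF), with adjusted p-values of 0.273 and 0.436. MSMO1, the C4 methyl oxidase, was higher in all EGF libraries (0.41 ± 0.14, adjusted p = 0.0801) with an estimate of 0.34 ± 0.13 under AII + EGF (adjusted p = 0.0424). LSS, FDFT1, NSDHL, HSD17B7, SC5D and DHCR7 had estimates of −0.28 to 0.28 under AII + EGF, and none passed the test.

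STARD4, which carries cholesterol between membranes, was at 33.3, 27.96, 36.8 and 29.6 CPM in control and 49.2, 43.98, 50.4 and 42.6 CPM under AII + EGF. All AII + EGF libraries were higher (0.55 ± 0.16, adjusted p = 0.00648), under the fold minimum. The estimates for AII and EGF alone were 0.36 ± 0.15 and 0.35 ± 0.17 (adjusted p = 0.288 and 0.272).

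Among the fatty acid enzymes, the elongase ELOVL6 rose and the desaturase FADS2 fell. ELOVL6, which lengthens palmitate, was at 32.4, 33.5, 34.01 and 33.5 CPM in control and 42.3, 43.1, 39.7, 41.96 and 37.1 CPM under AII. EGF libraries were at 52.6, 52.2 and 48.4 CPM and AII + EGF libraries at 49.8, 49.3, 56.2 and 49.0 CPM. Among the members called under EGF alone, ELOVL6 was thus the one with a change of the same size under EGF and AII + EGF. Its change was 0.61 ± 0.11 under EGF (adjusted p = 0.000238, edgeR) and 0.62 ± 0.11 under AII + EGF (adjusted p = 1.28e-05, edgeR), with a difference of 0.00 ± 0.11. ELOVL6 lay close to the 1.5-fold minimum, and the call under AII + EGF was lost without AII + EGF replicate 3. The call under EGF was lost in the fit over only the groups compared and with all 48 libraries.

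FADS2, the Δ6 desaturase, was at 17.9, 17.2, 15.3 and 11.4 CPM in control, 13.1 to 17.5 CPM under AII and 15.5 to 16.9 CPM under EGF. AII + EGF libraries were at 9.17, 10.9, 8.29 and 11.1 CPM (−0.64 ± 0.15, adjusted p = 0.000657, edgeR). The call was lost without control replicate 3 and without AII + EGF replicate 3. FADS1, the Δ5 desaturase next to it on chromosome 11, did not pass the test (0.05 ± 0.11), and the annotated spans of both genes overlap. ACACA, acetyl-CoA carboxylase, was higher in all AII + EGF libraries (0.38 ± 0.12, adjusted p = 0.0169). The estimates of ACLY, FASN and SCD were 0.09, −0.07 and 0.05. The median estimate of the 7 fatty acid enzymes was 0.22 under AII, 0.27 under EGF and 0.05 under AII + EGF, and among the single stimuli the test was passed by ELOVL6 under EGF alone.

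FAXDC2 fell most. It was at 10.4, 12.1, 12.4 and 7.97 CPM in control and 6.26, 6.87, 8.88, 7.01 and 8.55 CPM under AII. EGF lowered it to 4.88, 4.70 and 5.53 CPM and AII + EGF to 2.78, 1.93, 1.55 and 1.70 CPM. The EGF and AII + EGF libraries overlapped neither control nor each other. The log2 change was −0.51 ± 0.18 under AII (adjusted p = 0.149), −1.08 ± 0.21 under EGF (adjusted p = 0.000404, edgeR) and −2.42 ± 0.21 under AII + EGF (adjusted p = 1.04e-11, edgeR). The ratio of AII + EGF to control was 0.187. The call under EGF was lost when the doubtful AII and AII + EGF libraries were kept (40 libraries, adjusted p = 0.0566, edgeR).

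Beyond the calls, the single stimuli and the combination differed in the balance of the pathway. All 5 AII libraries lay above all controls for 4 of the 32 genes, INSIG1, SREBF1, ELOVL6 and SCD (12.5%, background 4.89%), and below them for LSS (background 2.63%). All 3 EGF libraries lay above all controls for 14 of the 32 genes (43.8%), where 13.2% of all genes did so, and below them for 2 (6.25%, background 8.88%). All AII + EGF libraries lay above all controls for 7 genes (21.9%, background 17.4%) and below them for 11 (34.4%, background 15.9%). The median log2 change of the 32 genes was 0.03 under AII, 0.18 under EGF and −0.12 under AII + EGF, beside −0.01, −0.01 and −0.03 over all genes tested. Scaling by library totals in place of TMM would shift the median of all genes to −0.11 under EGF, −0.14 under AII + EGF and −0.14 for AII + EGF against AII. This is less than the change of any called member, but genes near the fold minimum (0.58 on the log2 scale) could cross it in either direction. Calls with that scaling were not made.

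The second question was what each receptor added to the other at 6 h. Relative to EGF alone, AII + EGF changed 5 members (background 2.92%, with 1.62% higher and 1.31% lower). INSIG1 was higher (0.91 ± 0.11), and FAXDC2 (−1.33 ± 0.23), MVK (−0.77 ± 0.19), FADS2 (−0.71 ± 0.16) and SQLE (−0.63 ± 0.12) were lower, with adjusted p-values of 1.23e-07, 7.37e-05, 0.00504, 0.0019 and 0.00051 (edgeR). All AII + EGF libraries were below all EGF libraries for 19 of the 32 genes (background 16.4%). The median difference of the members was −0.25, beside −0.01 over all genes. With 3 EGF libraries this count was unsteady and ran from 2 to 5 when a library was left out, with 2 without EGF replicate 5 and 3 without EGF replicate 3 or AII + EGF replicate 1, 2 or 3. FAXDC2, whose mean of 5.04 CPM under EGF lay just above the 5 CPM minimum, was not called in this comparison by DESeq2. When the 24 h libraries that stood apart were left out of the common fit, FAXDC2 was not called either, although its difference was −1.32 ± 0.18 (adjusted p = 2.11e-06, edgeR), and MVD was (−0.68, adjusted p = 0.00276). The background in that fit was 3.37%, with 1.44% lower. With the run of titles as a block, SQLE was not called and MVD was (−0.60, adjusted p = 0.00531).

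Relative to AII alone, 6 members changed (background 7.6%, with 4.21% higher and 3.39% lower), with INSIG1 (1.29 ± 0.09) and HMGCS1 (0.63 ± 0.18) higher and FAXDC2 (−1.91 ± 0.21), MVK (−0.74 ± 0.17), FADS2 (−0.69 ± 0.14) and PMVK (−0.62 ± 0.16) lower. The largest adjusted p of these was 0.00963 (HMGCS1, edgeR). The count ran from 4, without AII + EGF replicate 1, AII replicate 3 or AII replicate 5, to 8, without AII replicate 2. SQLE (−0.57 ± 0.11, adjusted p = 0.000125) and EBP (−0.54 ± 0.16, adjusted p = 0.00932) passed the test but not the fold minimum.

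The interaction term asks whether the combination departed from the sum of both single changes on the log2 scale. No member was called by edgeR (background 0.229%), and the smallest adjusted p was 0.087, for FADS2 (−0.75 ± 0.21). At an unadjusted p under 0.05 there were 11 members, beside 1916 of all 19626 genes tested. Among the 11 were FAXDC2 (−0.83 ± 0.29), MVK (−0.72 ± 0.25), SQLE (−0.45 ± 0.16), SREBF2 (−0.38 ± 0.12) and INSIG1 (0.41 ± 0.14). The estimate was below 0 for most members, with a median of −0.29 beside −0.01 over all genes. The interaction of MVK was called when the run of titles entered the fit as a block, and no member was called by DESeq2.

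After 24 h no member was called under AII, EGF or AII + EGF, by edgeR or by DESeq2. Few of all genes tested were called either (0%, 0.245% and 2.89%, edgeR). The absence of calls among so few members therefore does not set the pathway apart from other genes. At an unadjusted p under 0.05 there were 0, 2 and 10 members, beside 343, 2878 and 6294 of all 19626 genes tested. Under AII + EGF, INSIG1 was still higher in every library than in any control (background 2.62%). Its lowest, median and highest levels were 293, 315 and 367 CPM, against 208, 232 and 270.1 CPM in control. Its change of 0.45 ± 0.08 passed the test (adjusted p = 6.96e-05, edgeR) but not the fold minimum. SQLE (−0.45 ± 0.09, adjusted p = 0.000668) and SCD (−0.28 ± 0.07, adjusted p = 0.00553) also passed it in the opposite direction. Under AII + EGF, 3.12% of the members thus passed the test upward and 6.25% downward, beside 5.29% and 5.1% of all genes. IDI1 had the largest estimate (−0.46 ± 0.15, adjusted p = 0.0241). Against EGF, against AII and for the interaction at 24 h, no member was called by edgeR or DESeq2 (backgrounds 0.0917%, 1.45% and 0%). The members at an unadjusted p under 0.05 were 4, 7 and 0, beside 2093, 4957 and 660 of all genes tested.

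Without the 4 libraries that stood apart, no member was called at 24 h under AII, EGF or AII + EGF either (backgrounds 0%, 0.618% and 3.85%). In that fit INSIG1 under EGF changed by 0.41 ± 0.08 (adjusted p = 0.0027) in place of 0.33 ± 0.08 (adjusted p = 0.0256), and under AII + EGF IDI1 (−0.49 ± 0.13, adjusted p = 0.00464) and INSIG2 (−0.36 ± 0.08, adjusted p = 0.000642) passed the test while SCD (−0.23 ± 0.08, adjusted p = 0.0276) did not. Without AII + EGF replicate 6 alone, IDI1 was called lower. The estimates of FAXDC2, which fell most at 6 h, were −0.14, −0.05 and −0.16 at 24 h under AII, EGF and AII + EGF. The largest estimate under AII at 24 h was 0.24 ± 0.25 for CYP51A1, and under EGF it was that of INSIG1, followed by −0.26 ± 0.15 for MVK.

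Within the 24 h runs of titles, INSIG1 under AII + EGF differed from control by 0.49, 0.42, 0.46 and 0.44 on the log2 scale. Under EGF alone INSIG1 differed by 0.30, 0.44 and 0.34 in the other 3 runs and by −0.01 in the run whose ETV5 did not respond. At 6 h the members could be compared within 2 runs. For the 12 called members the sign was fixed beforehand, since all their AII + EGF libraries lay outside the range of the controls. The sizes of the AII + EGF differences were, for example, 1.86 and 1.91 for INSIG1, −2.79 and −2.80 for FAXDC2 and −0.84 and −0.35 for MVK. A fit with the run of titles as a block called the same 12 members.

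**Figure D4:**
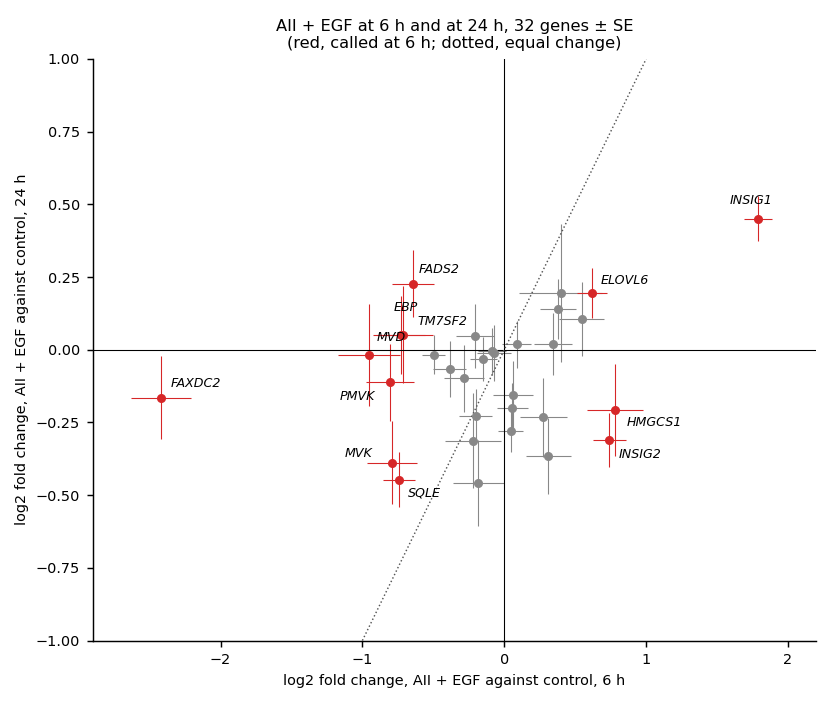
Log2 fold change ± SE under AII + EGF at 6 h (x axis) and at 24 h (y axis) of the 32 genes, each against control of the same time. Red genes were called at 6 h, and at 24 h they lie between −0.45 (SQLE) and 0.45 (INSIG1), with FAXDC2 at −2.42 and −0.16.

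The difference between both times was tested directly as the AII + EGF change at 24 h minus that at 6 h, which gave 6 called members (background 11.6%, with 5.49% higher and 6.08% lower). INSIG1 (−1.34 ± 0.12), INSIG2 (−1.05 ± 0.15) and HMGCS1 (−0.99 ± 0.25) had a lower change at 24 h, and FAXDC2 (2.25 ± 0.25), FADS2 (0.87 ± 0.19) and EBP (0.78 ± 0.21) a higher one. Of these 6, INSIG1 and FAXDC2 had estimates of the same sign at 6 and 24 h. The estimates were of opposite sign for INSIG2 (0.74 and −0.31), HMGCS1 (0.78 and −0.21), FADS2 (−0.64 and 0.23) and EBP (−0.73 and 0.05). Over the 32 genes the absolute change was larger at 6 h for 25, and the sign was the same for 21. Without the 4 libraries that stood apart, EBP was not called and MVD (1.02 ± 0.20, adjusted p = 0.00016, edgeR) and SREBF1 (−0.63 ± 0.16, adjusted p = 0.00285, edgeR) were. The background in that fit was 12.3%, with 6.33% higher and 5.97% lower.

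Unstimulated cells also differed between 24 h and 6 h, and this sets the level from which each response was measured. ACAT2 (−0.94 ± 0.18), MVD (−0.69 ± 0.19) and SQLE (−0.62 ± 0.10) were lower and FAXDC2 (1.25 ± 0.17) was higher in control at 24 h (adjusted p-values 0.000138, 0.00509, 2.34e-05 and 1.21e-06, edgeR), 4 members beside a background of 6.72% (4.76% higher, 1.96% lower). ACAT2 was at 154 to 179 CPM in the 6 h controls, and its lowest, median and highest levels in the 24 h controls were 61.7, 79.5 and 125.3 CPM. FAXDC2 was at 15.2, 25.8 and 33.1 CPM in the 24 h controls, above all 6 h controls. The median difference of the members was −0.27, beside 0.03 over all genes, and the summed level of the 32 genes was 5360 ± 147 CPM (SD, n = 4) at 6 h and 4288 ± 395 CPM (SD, n = 6) at 24 h. With library totals as the scale, the median over all genes would be 0.12.

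Without the 4 libraries that stood apart, HMGCS1 (−0.70 ± 0.12, adjusted p = 2.72e-05) and DHCR7 (−0.62 ± 0.11, adjusted p = 5.86e-05) were also called lower at 24 h by edgeR. The background in that fit was 9.17%, with 3.46% lower. The number of members called ran from 2 without control 24 h replicate 1 to 6 without control 24 h replicate 6. INSIG2 was higher at 24 h (0.49 ± 0.11, adjusted p = 0.000563), and SC5D (−0.41 ± 0.09, adjusted p = 0.000312) and DHCR7 (−0.52 ± 0.13, adjusted p = 0.00188) were lower, all 3 under the fold minimum. No run of titles holds libraries of both times, so time and run cannot be told apart in this comparison.

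Other genes of lipid metabolism were taken from further lists. Of 8 genes of SREBP processing and turnover and of 12 tested genes of sterol efflux and its nuclear receptors, none was called in any comparison with control by edgeR.

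Of 23 genes of fatty acid supply, elongation and esterification, AII + EGF at 6 h raised 5 and lowered 4, where 6.45% of all genes were called higher and 5.53% lower. ACSL4, an acyl-CoA synthetase (1.06 ± 0.14), the elongases ELOVL5 (0.62 ± 0.09) and ELOVL7 (1.01 ± 0.11), FADS3 (1.43 ± 0.18) and malic enzyme ME1 (1.05 ± 0.12) rose. ACACB (−1.64 ± 0.14), acetyl-CoA synthetase ACSS2 (−0.90 ± 0.10), MECR (−0.64 ± 0.15) and the carbohydrate response factor MLXIPL (−1.08 ± 0.22) fell. ACACB, the carboxylase at mitochondria, averaged 16.4 ± 2.49 CPM in the 4 controls (SD) and 5.25 ± 0.653 CPM in the 4 AII + EGF libraries (SD), the reverse of the estimate of its cytosolic counterpart ACACA. EGF alone raised FADS3 and ME1 and lowered ACACB. FADS3 was the single gene of this list still called under AII + EGF at 24 h (1.00 ± 0.14, adjusted p = 2.9e-06, edgeR), where 2.89% of all genes were called. It was also called without the 4 libraries that stood apart (1.01 ± 0.13, background 3.85%).

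Of 15 tested genes of fatty acid oxidation, ACADS (−0.76 ± 0.19) and HADH (−0.59 ± 0.14) fell under AII + EGF at 6 h (background 5.53% lower). At 24 h ACADS (0.67 ± 0.15, adjusted p = 0.00102, edgeR) and ACADVL (0.65 ± 0.14, adjusted p = 0.000793, edgeR), both acyl-CoA dehydrogenases, were higher than control, where 2.89% of all genes were called. Without the 4 libraries that stood apart, the values were 0.71 ± 0.17 for ACADS and 0.68 ± 0.14 for ACADVL, and both were called (background 3.85%). ACADS moved in opposite directions at 6 and 24 h, from 11.95 ± 2.45 to 7.05 ± 1.03 CPM at 6 h (SD, n = 4 each) and from 19.4 ± 5.66 to 30.96 ± 5.23 CPM at 24 h (SD, n = 6 each).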

How the data were processed

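Libraries were prepared from polyadenylated RNA and sequenced as paired ends by the authors, who mapped reads to hg38 with HISAT2 2.1.0 and counted them per gene with featureCounts (Ensembl annotation). The deposited values are raw counts per gene, with no normalization, in 1 table. Whether counting used strand or multi-mapped reads is not given in the sources used here. Counting error is small for members with high counts, where the spread between libraries sets the precision. It is larger for FAXDC2, CYP51A1 and TM7SF2, whose lowest counts in a library were 29, 64 and 76.

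The members and gene lists were chosen with earlier results of these data known. Groups follow the labels. All genes that passed filterByExpr were fitted in 1 edgeR 4.0.16 quasi-likelihood model over 38 libraries with TMM scaling (R 4.3.3), tested on simulated data before use. CPM values are TMM-scaled. The thresholds were an adjusted p of 0.01, a 1.5-fold change and 5 CPM. Alternatives were DESeq2 1.42.0, RLE factors, other thresholds and filters, fits over only the groups compared, over 40 or 48 libraries, with a block for the run of titles, and with each library left out. A member was named when called, or when its change was the largest of its role, and values in every library were printed for the 12 members called under AII + EGF at 6 h. Promoters and gene spans come from RefSeq tables for GRCh38.p14. A list of other sterol and isoprenoid genes is not reported here.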

Additional observations from a re-analysis of the deposited data

Results flagged for a closer look

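In groups of 4 to 10 libraries, a library was singled out when its gap to the nearest other exceeded Dixon's 95% critical value. This held for 7 of 84 groups of the 12 genes whose libraries are printed, and for 13 of 224 groups over all 32 members, and chance gives about 1 in 20. At 6 h the former were ELOVL6 in AII + EGF replicate 3 (56.2 CPM) and MVD in AII + EGF replicate 5 (17.3 CPM). At 24 h they were all replicate 6, from the run of titles that stood apart, namely HMGCS1 (534 CPM) and MVK (24.3 CPM) under AII + EGF, MVK (24.8 CPM) under EGF, and MVD (28.2 CPM) and TM7SF2 (11.8 CPM) under AII. Each of the 7 was the highest library of its group.

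The response to AII + EGF differed between 24 h and 6 h by a test of the difference itself (edgeR) for 6 members. The difference on the log2 scale was −1.34 for INSIG1 (adjusted p = 2.41e-10), −1.05 for INSIG2 (adjusted p = 1.31e-06) and −0.99 for HMGCS1 (adjusted p = 0.00307). It was 2.25 for FAXDC2 (adjusted p = 1.51e-08), 0.87 for FADS2 (adjusted p = 0.000504) and 0.78 for EBP (adjusted p = 0.00595).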

How the results depend on the processing

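DESeq2, RLE factors, no filter, no abundance minimum, fits over only the groups compared and leaving out the run of titles that stood apart kept every count of called members within 1.5 times. The choice of libraries mattered most. With the doubtful AII and AII + EGF libraries kept (40 libraries), 7 members were called under AII + EGF at 6 h in place of 12, 0 in place of 5 against EGF and 2 in place of 6 against AII. With all 48 libraries the counts were 2 for AII at 6 h, 5 for AII + EGF at 6 h, 1 against EGF, 2 against AII and 1 for control at 24 h against 6 h. Without the fold minimum they were 1 for AII at 6 h, 10 for AII + EGF against AII at 6 h, 3 for AII + EGF at 24 h, 1 against AII at 24 h and 8 for control at 24 h against 6 h. At an adjusted p under 0.05, 10 members differed in the AII + EGF response between times. With the run of titles as a block, 1 member was called for the interaction at 6 h and 10 for the difference in response between times, and the control comparison between times could not be fitted.

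With 1 library left out, the counts ran from 8 (without AII + EGF replicate 3) to 13 (without control replicate 5) for AII + EGF at 6 h, from 2 to 5 against EGF and from 4 to 8 against AII at 6 h. They ran from 0 to 1 for AII + EGF at 24 h and from 0 to 1 against AII at 24 h, from 2 to 6 for control at 24 h against 6 h and from 4 to 8 for the difference in response. No paired analysis was possible because the labels do not number the replicates, and the numbers used here only follow accession order. The causes of these changes were not tested.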
